A study of Sus scrofa with 27 samples.

Results

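The 10 genes studied here belong to the machinery of mitotic entry and exit: the CDC25 phosphatases CDC25A, CDC25B and CDC25C, their opponent kinase WEE1, the activators CDC20 and FZR1 of the anaphase-promoting complex (APC/C), its ubiquitin-conjugating enzyme UBE2C, and its subunits CDC27, CDC23 and CDC16. They were chosen by name, as a list that sets genes whose transcripts are known to be periodic over the cell cycle (CDC20, CDC25C and UBE2C) beside subunits thought to be present throughout it. All 10 were among the 35670 identifiers counted, and all 10 passed the filter on low counts, which left 11384 named genes to be tested.

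Mural granulosa cells (GCs) line the inside of the follicle wall. They were cut by laser capture microdissection from the largest healthy follicle of each sow, 1 follicle and 1 RNA-seq library per sow, on day 2 post-weaning. All animals were wild type primiparous sows of a Large White times Norwegian Landrace cross. The 13 full-fed (FF) sows received 6.5 kg of feed a day and the 14 feed-restricted (RES) sows 3.25 kg a day over the last 2 weeks of lactation, and both groups got the same allowance between weaning and tissue collection. The sequenced sows were picked for the lowest body weight loss in the FF group and for the highest in the RES group, so they are the ends of each diet's range and not a random draw from it. The study reported that the largest healthy follicles were smaller in RES than in FF sows, so follicle size differed along with diet. The part of follicle size in the results was not tested.

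CDC25 phosphatases remove the inhibitory phosphates that WEE1 and its relatives put on cyclin-dependent kinases, and the balance between them sets when a cell enters mitosis. The APC/C is a ubiquitin ligase of many subunits that marks securin, cyclins and other mitotic proteins for destruction, with CDC20 as its activator early in mitosis and FZR1 (also called CDH1) from late mitosis through G1. Granulosa cells divide many times while an antral follicle grows, and as the follicle develops further they leave the cell cycle and differentiate.

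Libraries held 12299220 to 16021200 counts each in FF and 12942198 to 18120922 counts in RES. The 9 granulosa markers that could be named (among them INHA, FSHR and NR5A2) were all tested and none passed in either direction in edgeR or DESeq2 (1 had an unadjusted edgeR p under 0.05), with a summed level of 78000 to 128500 normalized counts in FF and 78750 to 156400 in RES. Of other cell types, 3 of 7 endothelial markers (CDH5, CLDN5 and EMCN), 1 of 7 theca markers (CYP11A1), 1 of 8 stromal and smooth muscle markers (PDGFRB) and the red cell gene HBB were lower in RES in edgeR, and none was higher, beside 5.85% of all genes tested that were lower. DESeq2 called 4 endothelial, 2 theca, 1 stromal and 1 red cell marker lower and none higher. The summed endothelial level was 1176 to 2383 normalized counts in FF and 830 to 2346 in RES, the theca level 2439 to 13670 in FF and 1151 to 12690 in RES, and the stromal level 9307 to 27240 in FF and 7835 to 24440 in RES. Summed immune markers were at or below 206 normalized counts in every library. The 5 oocyte markers summed to 164 to 355 in FF and 148 to 318 in RES, nearly all of it GDF9 (a mean of 229 in FF and 210 in RES, log2 fold change -0.17, edgeR adjusted p = 0.365), while ZP3, ZP2 and BMP15 had means under 2 and OOSP2 was at 0 throughout. The part of these other cells in the results on the 10 genes was not tested. In bulk RNA, fewer cells of a type and less RNA per cell cannot be told apart. The libraries also fell on both sides of a gap in read quality (the percentage of bases called at Q20 or better, divided at 98%), with 7 FF and 7 RES libraries in the upper quality group and 6 FF and 7 RES libraries in the lower, and results are given within both. The read statistics of FF sow 10 may belong to another sow, since the sources differ on which FF sow was left out, so its place in the lower quality group is uncertain.

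Cell-cycle control of transcription is commonly read from the sequence just upstream of a gene. The elements best known for it are the cell cycle homology region (CHR, core letters TTTGAA), the CCAAT box (CCAAT) and E2F sites (searched as TTTCGCGC, TTTGGCGC and TTTCCCGC). The 250 bases before the start of each gene were taken from RefSeq on Sscrofa11.1, and both strands were searched. In the windows of 20664 protein-coding genes, 13% held the CHR core, 32% a CCAAT box and 4.41% both, while TTTCGCGC was in 0.377%, TTTGGCGC in 0.557% and TTTCCCGC in 1.36%. The windows of the 3 periodic genes, which moved most between the diets, and of CDC27, the most abundant of the 3 subunits, are printed 5′ to 3′ on the gene's own strand, with every match in capitals (an element on the opposite strand reads as its reverse complement, such as TTCAAA or ATTGG). CDC20 lies on the minus strand, window chr6:167890588-167890837. UBE2C lies on the plus strand, window chr17:48018153-48018402. CDC25C lies on the minus strand, window chr2:140323697-140323946, and CDC27 on the plus strand, window chr12:16810618-16810867.
CDC20: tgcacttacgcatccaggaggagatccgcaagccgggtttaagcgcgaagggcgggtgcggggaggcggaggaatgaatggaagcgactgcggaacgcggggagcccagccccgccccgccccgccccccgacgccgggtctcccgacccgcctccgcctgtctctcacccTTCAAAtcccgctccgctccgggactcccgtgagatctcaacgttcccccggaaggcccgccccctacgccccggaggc
UBE2C: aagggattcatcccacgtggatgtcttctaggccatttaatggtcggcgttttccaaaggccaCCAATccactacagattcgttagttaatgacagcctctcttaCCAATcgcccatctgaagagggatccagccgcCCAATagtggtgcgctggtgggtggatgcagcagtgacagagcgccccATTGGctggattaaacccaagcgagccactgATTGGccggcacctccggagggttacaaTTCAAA
CDC25C: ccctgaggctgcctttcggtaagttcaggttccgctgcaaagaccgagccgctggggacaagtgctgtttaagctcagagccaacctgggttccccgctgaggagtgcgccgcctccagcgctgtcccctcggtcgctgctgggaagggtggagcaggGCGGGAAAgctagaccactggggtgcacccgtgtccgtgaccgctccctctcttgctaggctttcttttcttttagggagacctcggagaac
CDC27: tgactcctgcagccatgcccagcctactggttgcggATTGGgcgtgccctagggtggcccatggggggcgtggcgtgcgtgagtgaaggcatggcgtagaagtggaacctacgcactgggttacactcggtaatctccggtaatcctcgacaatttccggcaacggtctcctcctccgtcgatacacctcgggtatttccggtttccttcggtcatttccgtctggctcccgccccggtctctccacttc

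UBE2C held the most matches of the 10 genes, with 5 CCAAT boxes and a CHR core 6 to 1 bases upstream, directly before the annotated start. CDC20 held a CHR core 79 to 74 bases upstream and no CCAAT box. The CDC25C window held neither, only an E2F core 92 to 85 bases upstream on the opposite strand. CDC27 held a single CCAAT box 214 to 210 bases upstream and no CHR or E2F core. Among the other genes, WEE1 held a CHR core, a CCAAT box and an E2F core, CDC25A held 2 CCAAT boxes and an E2F core, and no searched element lay in the windows of CDC25B, FZR1, CDC23 and CDC16. Gene starts are those of RefSeq, which need not be the starts used in granulosa cells, and a match or its absence describes the letters only.

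All 10 genes had a higher fitted level in RES than in FF. Of these, 7 passed edgeR's quasi-likelihood test at an adjusted p under 0.05, beside 14.1% of all genes tested that passed in either direction, 8.29% as higher and 5.85% as lower in RES. At an unadjusted edgeR p under 0.05 it was 9 of 10, beside 30% of all genes, and DESeq2's Wald test called 8 of 10 as higher, beside 9.55% of all genes. CDC25A, CDC25C, WEE1, CDC20, UBE2C, CDC27 and CDC23 rose, whereas CDC25B, FZR1 and CDC16 did not pass. The median log2 fold change over the 10 genes was 0.54, against -0.02 over all genes tested. Because the list was put together with earlier results of these data known, its direction is not independent evidence. Values per sow are given as normalized counts (deposited counts divided by a size factor per library), and fold changes are RES over FF on the log2 scale with their standard error (SE).

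**Figure D1:**
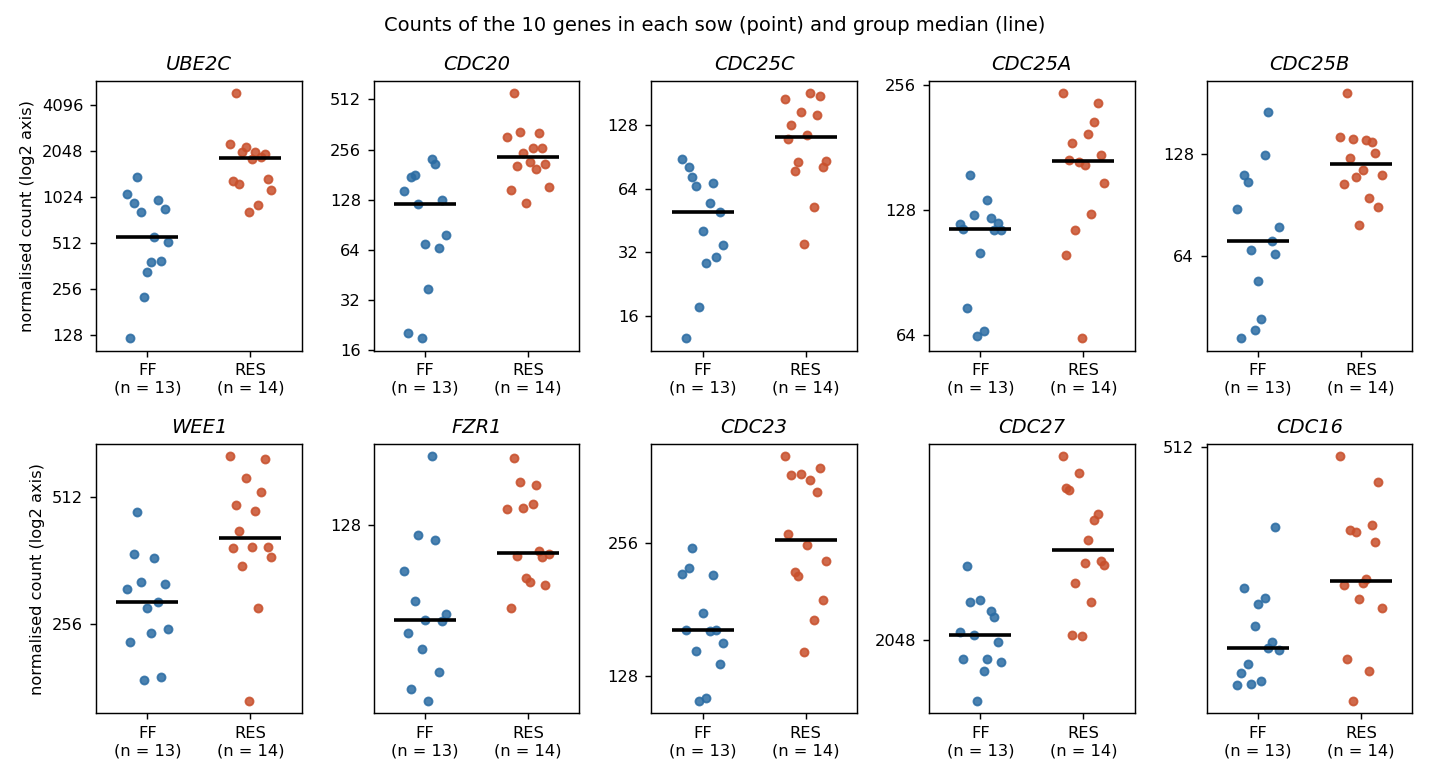
Normalized counts (log2 axis) of the 10 genes in each of 13 FF and 14 RES sows, 1 point per sow, with the group median as a line. UBE2C, CDC20 and CDC25C differ widely between FF sows (12-fold for CDC20) and sit higher in RES, while CDC16 spans 347 to 449 in FF and 338 to 504 in RES.

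The periodic genes had the largest differences of the list. UBE2C (ENSSSCG00000007423, chr17:48018403-48021542, plus strand), the E2 enzyme that starts ubiquitin chains on APC/C substrates, ran from 122 normalized counts in the lowest FF sow through a median of 558 to 1376 in the highest, and from 815 through 1846 to 4871 in RES. All 14 RES sows lay above the FF median, 8 of them above every FF sow, and 8 FF sows lay below every RES sow, so that the groups overlapped only in their middle. The log2 fold change was 1.42 (SE 0.28, edgeR adjusted p = 0.00198), which placed UBE2C at rank 19 of the 11384 genes tested. RES sow 3 held the highest value.

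CDC20 (ENSSSCG00000003949, chr6:167886266-167890587, minus strand), the activator on which the spindle checkpoint acts, ran from 18.7 through a median of 121 to 225 normalized counts in FF and from 122 through 230 to 557 in RES. The FF median was below every RES sow, the FF maximum below 7 of 14, and 7 FF sows lay below every RES sow. Its log2 fold change was 1.10 (SE 0.30, edgeR adjusted p = 0.0144). The FF sows differed more among themselves in CDC20 than in any other gene of the list, with a 12-fold range and a coefficient of variation of 62.6%, against a 4.58-fold range and 43.2% in RES.

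CDC25C (ENSSSCG00000051455, chr2:140289156-140323696, minus strand), the phosphatase that acts at the start of mitosis, had the lowest normalized counts of the list in FF. It ran from 12.5 through a median of 49.8 to 88.2 in FF and from 34.9 through 112 to 181 in RES. The FF median was exceeded by 13 of 14 RES sows and the FF maximum by 8, and the lowest was RES sow 7. The log2 fold change was 1.15 (SE 0.25, edgeR adjusted p = 0.00356). The lowest library held 13 raw counts of the gene, so that single low values carry a large counting error.

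The other CDC25 phosphatases and WEE1 had smaller fold changes. CDC25A (ENSSSCG00000021494, on an unplaced scaffold), which acts at the entry to S phase and again at mitosis, ran from 63.9 through 115 to 156 normalized counts in FF and from 62.9 through 168 to 245 in RES. Although 9 RES sows exceeded every FF sow, RES sow 7 was lower than all FF sows, so the RES range enclosed the FF range. CDC25A rose by 0.53 on the log2 scale (SE 0.16, edgeR adjusted p = 0.0263).

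CDC25B (ENSSSCG00000007151, chr17:31910824-31929418, minus strand), a phosphatase that acts in G2, ran from 36.5 through 70.8 to 172 normalized counts in FF and from 78.9 through 120 to 194 in RES. All 14 RES sows lay above the FF median, but only RES sow 3 exceeded FF sow 11, the highest FF sow, and 8 FF sows lay below every RES sow. Its log2 fold change of 0.55 (SE 0.19) was close to that of CDC25A and missed the threshold in edgeR (adjusted p = 0.0519). It passed in DESeq2's Wald test at 0.55 (adjusted p = 0.0308), and in edgeR in 7 of the 27 fits that left out a single library, with 0.69 (adjusted p = 0.0106) without FF sow 11.

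WEE1 (ENSSSCG00000013411, chr2:49880416-49894509, minus strand), the kinase that holds CDK1 inactive, ran from 190 through 290 to 472 normalized counts in FF and from 169 through 409 to 640 in RES. The FF median was exceeded by 12 of 14 RES sows and the FF maximum by 6, while RES sow 7 again lay below all FF sows. WEE1 rose by 0.51 (SE 0.15, edgeR adjusted p = 0.0261). The kinase and the phosphatase CDC25A that undoes its work thus had fold changes within an SE of each other. Among the 27 fits that left out a single library, both calls were lost only without RES sow 1, the highest RES sow in either gene. In that fit CDC25A was at 0.48 (edgeR adjusted p = 0.0526) and WEE1 at 0.46 (edgeR adjusted p = 0.0503). The loss was a matter of the threshold, since without RES sow 12 WEE1 was also at 0.46 and passed (edgeR adjusted p = 0.0496).

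The 3 APC/C subunits differed from each other. CDC27 (ENSSSCG00000017308, chr12:16810868-16882271, plus strand), a repeat-rich subunit that receives the activator, ran from 1711 through 2078 to 2556 normalized counts in FF and from 2077 through 2675 to 3535 in RES. Although 10 of 14 RES sows exceeded every FF sow, the fold change was small, 0.35 on the log2 scale (SE 0.07, edgeR adjusted p = 0.00294). CDC27 varied little between sows of a group, with a coefficient of variation of 10.7% in FF and 16.9% in RES.

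CDC23 (ENSSSCG00000014325, chr2:140211334-140245728, minus strand), a scaffold subunit built of the same kind of repeats, ran from 112 through 162 to 249 normalized counts in FF and from 145 through 260 to 403 in RES. Again 13 of 14 RES sows exceeded the FF median and 8 the FF maximum. CDC23 rose by 0.65 (SE 0.15, edgeR adjusted p = 0.00419). This value is uncertain, because 1462 of the 3031 exon bases of CDC23 in RefSeq also lie in exons of KIF20A, a mitotic kinesin gene on the opposite strand, and the counting command set no strand option. KIF20A itself rose by 1.16 (SE 0.22, edgeR adjusted p = 0.00194), from a mean of 470 to 1088 normalized counts. Whether the shared bases added read pairs to the CDC23 count or took them from it was not tested. CDC25C lies 43427 bases from CDC23 on the same strand.

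CDC16 (ENSSSCG00000020899, chr11:79084243-79111758, plus strand), another repeat subunit, ran from 347 through 369 to 449 normalized counts in FF and from 338 through 411 to 504 in RES. Only 3 RES sows exceeded every FF sow, and no FF sow lay below every RES sow. Its log2 fold change was 0.10 (SE 0.07, edgeR adjusted p = 0.287). CDC16 was also the steadiest gene of the list, with a coefficient of variation of 7.87% in FF and 11.4% in RES.

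FZR1 (ENSSSCG00000013481, chr2:75122599-75164134, minus strand), the activator of late mitosis and G1, ran from 72.7 through 94.3 to 160 normalized counts in FF and from 98.1 through 117 to 158 in RES. All 14 RES sows lay above the FF median, yet none exceeded FF sow 10, the highest FF sow. Its log2 fold change was 0.26 (SE 0.11, edgeR adjusted p = 0.102), and without FF sow 10 it was 0.34 (adjusted p = 0.0122). The RIN label of FF sow 10 is uncertain (the sample records name FF sow 9, the study's supplement FF sow 10, as the sow of low RNA integrity), and among the fits that left out a single library FZR1 passed only in that one. It also passed within the upper quality group.

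**Figure D2:**
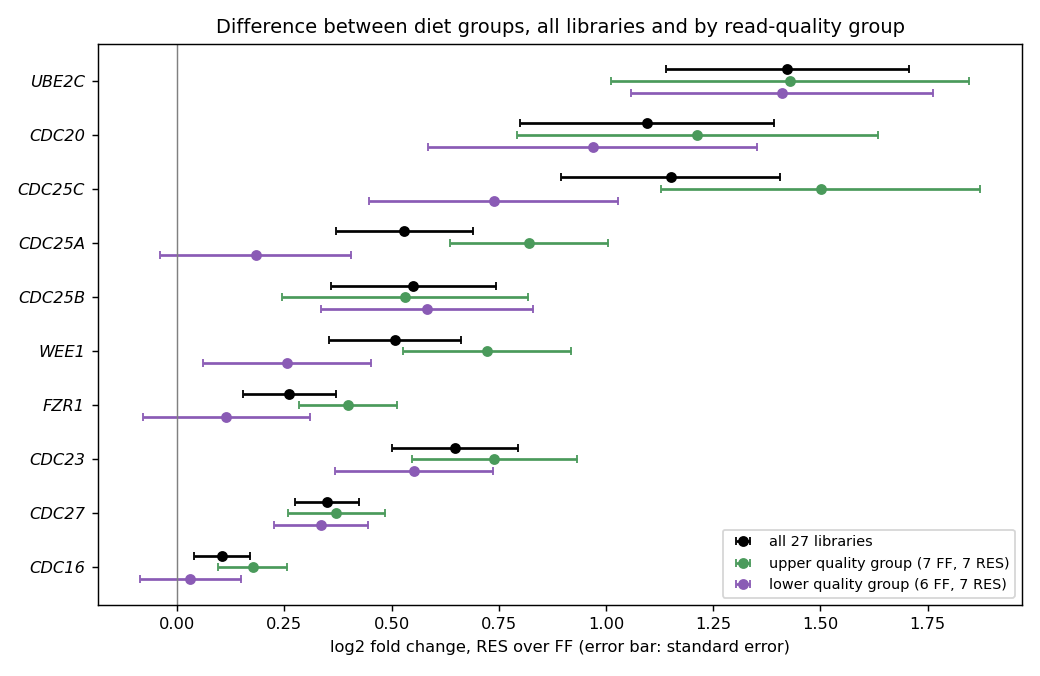
Log2 fold change, RES over FF, of the 10 genes in all 27 libraries, in the upper and in the lower read-quality sets, with bars of 1 SE on either side. All 10 values are above 0 in each set, from 0.10 (CDC16) to 1.42 (UBE2C) in all libraries, and CDC25A is farther from 0 in the upper (0.82) than in the lower (0.18) quality group.

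Levels of different genes can be set side by side only per length. Per kilobase of exon (RefSeq lengths, while the counts were made on Ensembl models), UBE2C was the highest in FF with 785 ± 447 normalized counts per kilobase (SD, n = 13), followed by CDC27 with 374 ± 40.1 and CDC16 with 167 ± 13.1. WEE1 (63.8 ± 17.0), CDC20 (61.7 ± 38.6) and CDC23 (56.7 ± 14.3) formed a middle group whose means were closer than their SDs. The CDC23 level is uncertain through the overlap given above. CDC25C (32.8 ± 16.2), CDC25A (28.5 ± 7.03), CDC25B (21.4 ± 10.4) and FZR1 (20.5 ± 4.87) followed, also with neighbours within an SD. In RES (n = 14) the order was the same except that CDC20, at 137 ± 59.1 per kilobase, came before WEE1 (93.9 ± 28.3) and CDC23 (91.8 ± 28.4). UBE2C reached 2191 ± 1184 per kilobase in RES, CDC27 493 ± 83.0 and CDC16 185 ± 21.0. The phosphatases and FZR1 were again at the low end, from 75.4 ± 30.6 per kilobase for CDC25C to 25.4 ± 3.75 for FZR1.

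The contrast between the periodic genes and the subunits was also taken within each sow. The mean log2 normalized count of CDC27, CDC23 and CDC16 was subtracted from that of CDC20, CDC25C and UBE2C. The difference was -1.98 ± 0.88 (SD, n = 13) in FF, from -3.88 in FF sow 2 through a median of -1.50 to -1.17 in FF sow 4, and -0.96 ± 0.40 (SD, n = 14) in RES, from -1.69 in RES sow 7 through -0.90 to -0.09 in RES sow 3. The FF median was exceeded by 13 RES sows and the FF maximum by 10, while 6 FF sows lay below every RES sow. The periodic genes were thus higher relative to the subunits in RES than in FF. Counts were not divided by gene length here, so only the shift between the diets can be read, not the sign or size of the difference itself. No test was run on this difference, because its genes were chosen. The median log2 fold change was 1.15 over the 3 periodic genes, of which 3 passed the test, and 0.35 over the 3 subunits, of which 2 passed (CDC27 and CDC23, the latter with the overlap given above).

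**Figure D3:**
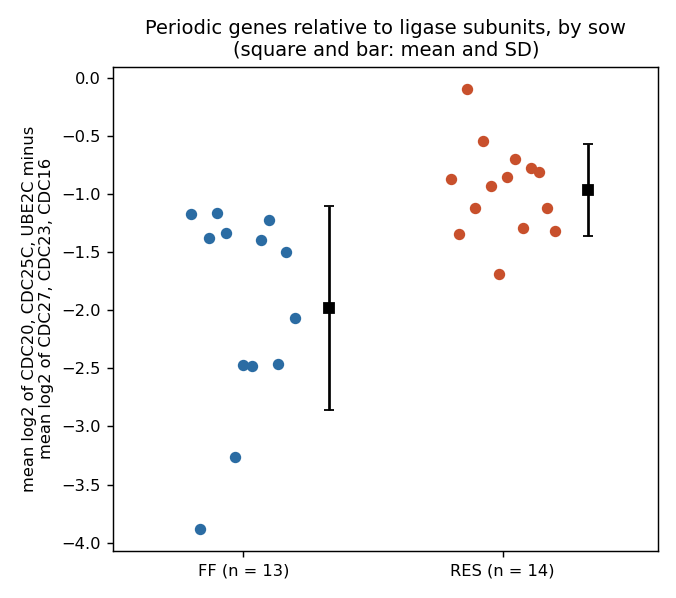
Mean log2 normalized count of CDC20, CDC25C and UBE2C minus that of CDC27, CDC23 and CDC16 in each sow (points), with the group mean and SD (square and bar). FF sows lie between -3.88 and -1.17 and RES sows between -1.69 and -0.09.

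The same few sows held the extremes of several genes. RES sow 7 was the lowest RES sow in 8 of the 10 genes (all but FZR1 and CDC16). RES sow 1 was the highest RES sow in CDC25A, WEE1, CDC27, CDC23 and CDC16, and RES sow 3 in CDC25B, CDC20, FZR1 and UBE2C. Among FF sows, FF sow 6 and FF sow 8 were among the lowest 3 in 8 genes each. RES sow 3 and RES sow 5 stand apart from all other libraries in read quality. Without these libraries, an alternative chosen after seeing the data, 7 genes of the list were again called, with CDC20 at 0.92 (edgeR adjusted p = 0.0416) and UBE2C at 1.22 (adjusted p = 0.00511).

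Whether the genes varied together between sows of the same diet was measured by their correlation with CDC20 (Pearson's r on normalized counts, two-sided permutation test, Benjamini-Hochberg adjustment over the 18 correlations of the family). The share of all genes that correlate with CDC20 as strongly in each diet was not computed, so passing is not shown to be particular to the list. In FF (n = 13), 6 of 9 correlations passed, and in RES (n = 14) 4 of 9. These counts depended on the scale: on log2 normalized counts 6 passed in FF and 7 in RES (CDC27 joined in FF, and CDC25A, CDC25C and WEE1 in RES, while FZR1 was lost in FF), and on TMM-scaled counts 6 in FF and 3 in RES. CDC25B passed in both diets, with r = 0.90 in FF (permutation p = 1e-05, the smallest that can be given, adjusted p = 9e-05) and 0.92 in RES (permutation p = 1e-05, adjusted p = 9e-05). Spearman's rho was 0.92 in FF (permutation p = 3e-05, adjusted p = 0.00054) and 0.86 in RES (permutation p = 0.00021, adjusted p = 0.00126). UBE2C also passed in both diets. In FF its r was 0.77 (permutation p = 0.00253, adjusted p = 0.00651) and its rho 0.84 (permutation p = 0.00069, adjusted p = 0.00207). In RES its r was 0.94 (permutation p = 5e-05, adjusted p = 0.0003) and its rho 0.86 (permutation p = 0.00018, adjusted p = 0.00126). Without the 2 sows farthest from the CDC20 median, r was 0.88 in FF (permutation p = 1e-05, adjusted p = 0.00018) and 0.77 in RES (permutation p = 0.00422, adjusted p = 0.0152) for CDC25B, and 0.91 in FF (permutation p = 0.00022, adjusted p = 0.00198) and 0.78 in RES (permutation p = 0.00394, adjusted p = 0.0152) for UBE2C. These genes thus passed with and without those sows in both diets.

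On unlogged normalized counts CDC25C and WEE1 passed by Pearson's r in FF and not in RES, and the difference between the diets was not tested. CDC25C had r = 0.82 in FF (permutation p = 0.00098, adjusted p = 0.00441; rho 0.84, permutation p = 0.0005, adjusted p = 0.00207) and 0.43 in RES (permutation p = 0.126, adjusted p = 0.151; rho 0.60, permutation p = 0.0277, adjusted p = 0.0453). WEE1 had r = 0.78 in FF (permutation p = 0.00147, adjusted p = 0.00529; rho 0.85, permutation p = 0.00062, adjusted p = 0.00207) and 0.47 in RES (permutation p = 0.0902, adjusted p = 0.125; rho 0.61, permutation p = 0.0232, adjusted p = 0.0418). Without the 2 farthest sows, CDC25C was at 0.88 in FF (permutation p = 0.00059, adjusted p = 0.00354) and 0.49 in RES (permutation p = 0.106, adjusted p = 0.149), and WEE1 at 0.72 in FF (permutation p = 0.00897, adjusted p = 0.0269) and 0.51 in RES (permutation p = 0.0908, adjusted p = 0.149).

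FZR1, the alternative activator, had r = 0.66 in FF (permutation p = 0.0109, adjusted p = 0.0245; rho 0.64, permutation p = 0.0209, adjusted p = 0.0418) and 0.71 in RES (permutation p = 0.00189, adjusted p = 0.00567; rho 0.61, permutation p = 0.0214, adjusted p = 0.0418), but without the 2 farthest sows it was at 0.50 (permutation p = 0.121, adjusted p = 0.155) and 0.52 (permutation p = 0.0824, adjusted p = 0.149), so FZR1 no longer passed by Pearson's r with fewer sows, although r stayed positive. CDC23 had r = 0.66 in FF (permutation p = 0.016, adjusted p = 0.032; rho 0.57, permutation p = 0.0478, adjusted p = 0.0615) and 0.57 in RES (permutation p = 0.0216, adjusted p = 0.0389; rho 0.58, permutation p = 0.0339, adjusted p = 0.0508). Without the 2 farthest sows CDC23 was at 0.74 in FF (permutation p = 0.0112, adjusted p = 0.0287) and 0.49 in RES (permutation p = 0.107, adjusted p = 0.149). CDC25A did not pass by Pearson's r, with 0.55 in FF (permutation p = 0.0508, adjusted p = 0.0831) and 0.39 in RES (permutation p = 0.168, adjusted p = 0.189), while its rho was 0.71 in FF (permutation p = 0.00768, adjusted p = 0.0198) and 0.56 in RES (permutation p = 0.0397, adjusted p = 0.0549). CDC27 passed by neither measure, with r = 0.51 in FF (permutation p = 0.0765, adjusted p = 0.115; rho 0.53, permutation p = 0.0643, adjusted p = 0.0772) and 0.44 in RES (permutation p = 0.107, adjusted p = 0.138; rho 0.45, permutation p = 0.109, adjusted p = 0.123). CDC16 had r = 0.23 in FF (permutation p = 0.461, adjusted p = 0.489; rho 0.20, permutation p = 0.518, adjusted p = 0.549) and -0.16 in RES (permutation p = 0.581, adjusted p = 0.581; rho 0.12, permutation p = 0.693, adjusted p = 0.693), and its sign in RES was thus not stable.

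**Figure D4:**
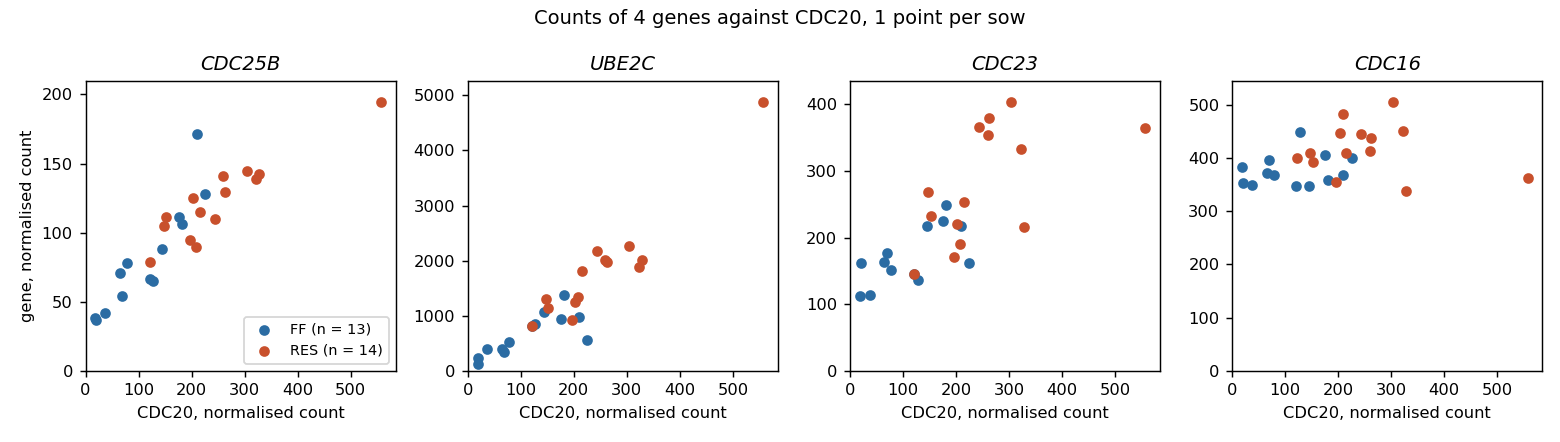
Normalized counts of CDC25B, UBE2C, CDC23 and CDC16 (vertical axes) against CDC20 (horizontal axis), 1 point per sow, FF and RES in different colours. CDC25B and UBE2C climb with CDC20 in both diets (r = 0.90 and 0.77 in FF, 0.92 and 0.94 in RES), CDC23 less closely (0.66 and 0.57), and CDC16 stays between 338 and 504 at every CDC20 level.

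Within the quality groups the correlations had fewer sows behind them. For CDC25B, r was 0.94 in FF (n = 7, exact permutation p = 0.000794) and 0.77 in RES (n = 7, exact permutation p = 0.0435) in the upper group, and 0.92 in FF (n = 6, exact permutation p = 0.0167) and 0.95 in RES (n = 7, exact permutation p = 0.00595) in the lower. For UBE2C, r was 0.93 in FF (n = 7, exact permutation p = 0.00496) and 0.75 in RES (n = 7, exact permutation p = 0.0629) in the upper group, and 0.42 in FF (n = 6, exact permutation p = 0.408) and 0.97 in RES (n = 7, exact permutation p = 0.000397) in the lower. CDC25B thus had a positive r in all 4 sets, the lowest of them in RES of the upper group. FZR1 had r = -0.26 in RES of the upper group (n = 7, exact permutation p = 0.542) and 0.90 in RES of the lower group (n = 7, exact permutation p = 0.0137), where RES sows 3 and 5 lie. In the order FF upper, RES upper, FF lower and RES lower, CDC25C had r = 0.96, 0.73, 0.58 and 0.57, WEE1 had 0.75, 0.71, 0.87 and 0.65, and CDC23 had 0.89, 0.77, 0.44 and 0.76. In the same order CDC25A had r = 0.41, 0.75, 0.80 and 0.46, CDC27 had 0.75, 0.71, -0.09 and 0.48, and CDC16 had 0.10, 0.65, 0.36 and -0.49. After adjustment over the 18 correlations of each quality group, 3 passed in the upper group (CDC25B, CDC25C and UBE2C, all in FF) and 1 in the lower (UBE2C in RES), all by permutation.

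The genes most like CDC20 in pattern were named by the Spearman correlation over all 27 libraries after the mean of each diet was removed, among 9512 genes, as a description of libraries that share their cells and depth. They were INCENP (0.94), a subunit of the chromosomal passenger complex, the cytokinesis kinase gene CIT (0.92), HJURP (0.92), which loads centromeric histone, the histone chaperone gene ASF1B (0.92) and CDCA3 (0.92), a trigger of mitotic entry. UBE2C stood at rank 19 (0.89), CDC25B at 34 (0.86), CDC25C at 159 (0.76), WEE1 at 269 (0.72), FZR1 at 560 (0.64), CDC25A at 831 (0.58), CDC23 at 1154 (0.52), CDC27 at 1710 (0.43) and CDC16 at 4671 (0.08). Many genes outside the list were thus nearer to CDC20 than FZR1 and CDC23, whose correlations with it passed in both diets. CDC25B therefore stood nearer to CDC20 than CDC25C did, although CDC25C had the larger difference between diets. The genes most like CDC27 were CSE1L (0.92), which returns importin alpha to the cytoplasm, TBC1D8B (0.91), the mitochondrial ribosome gene MRPS30 (0.91), RMI1 (0.91), which acts with BLM helicase, and UQCRFS1 (0.90), a subunit of respiratory complex III. CDC23 stood at rank 23 of that order (0.87), CDC25C at 510 (0.71), WEE1 at 522 (0.70), UBE2C at 1061 (0.60), CDC20 at 2057 (0.43) and CDC16, a subunit of the same complex, at 2676 (0.34).

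Within the quality groups, all 10 genes were higher in RES by fitted value, but the calls differed. In the upper group 7 of the 10 passed edgeR's test as higher in RES, beside 9.83% of all genes tested. These were not the 7 of the fit to all libraries, because FZR1 passed (0.40, SE 0.11, adjusted p = 0.0265, against 0.115, SE 0.19, adjusted p = 0.867 in the lower group) and CDC20 did not. In the lower group 0 of 10 passed, beside 0.00878% of all genes (a single gene, with 1385 at an unadjusted p under 0.05). In the lower group, 6 of the 10 genes (CDC25B, CDC25C, CDC20, UBE2C, CDC27 and CDC23) had an unadjusted edgeR p under 0.05. UBE2C was at 1.43 (SE 0.42, adjusted p = 0.0288) in the upper and 1.41 (SE 0.35, adjusted p = 0.116) in the lower group, and CDC27 at 0.37 (SE 0.11, adjusted p = 0.0334) and 0.33 (SE 0.11, adjusted p = 0.217). For these genes the fold change was nearly the same in both groups, and the call was not. CDC20 was at 1.21 (SE 0.42, adjusted p = 0.0559) in the upper and 0.97 (SE 0.38, adjusted p = 0.32) in the lower group, and CDC25C at 1.50 (SE 0.37, adjusted p = 0.0157) and 0.74 (SE 0.29, adjusted p = 0.313). CDC25A was at 0.82 (SE 0.18, adjusted p = 0.0118) in the upper and 0.18 (SE 0.22, adjusted p = 0.797) in the lower group, and WEE1 at 0.72 (SE 0.20, adjusted p = 0.0219) and 0.26 (SE 0.20, adjusted p = 0.646). Tested as an interaction of diet and quality group in edgeR, the CDC25A difference (lower minus upper) was -0.64 (SE 0.29, unadjusted p = 0.0388, adjusted p = 0.39), the lowest p of the list, and no gene of the list passed the adjusted threshold.

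The other genes of the pathway are given by role. Of the other APC/C subunits, 10 of 11 were tested and 0 passed in either direction in edgeR or in DESeq2 (4 had an unadjusted edgeR p under 0.05, 3 of them higher in RES), with a median of 0.16, from -0.32 for ANAPC4 (adjusted p = 0.14) to 0.29 for ANAPC10 (adjusted p = 0.119). CDC27 and CDC23, the latter with the overlap given above, were thus the only tested subunits of the complex that were called. Over all genes tested, 14.1% passed edgeR's test in either direction and 30% had an unadjusted p under 0.05. Of the ubiquitin enzymes, spindle checkpoint genes and inhibitors that act on the APC/C, 12 of 14 were tested, 7 rose and 0 fell in edgeR, against 8 and 0 in DESeq2, with a median of 0.74. UBE2S, the E2 enzyme that extends the chains UBE2C begins, rose by 1.32 (SE 0.29, edgeR adjusted p = 0.00342), from a mean of 34.1 to 88.9 normalized counts. UBE2D1, an E2 enzyme with many other ligases, was at 0.13 (SE 0.08, adjusted p = 0.323).

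The transcripts of proteins that the APC/C marks for destruction had the highest median of the 5 lists of other pathway genes. Protein levels were not measured here. Of 25 such genes, 21 were tested, and 19 rose and 0 fell in edgeR and in DESeq2 alike (0 lower at an unadjusted p under 0.05), with a median log2 fold change of 1.02. CCNB1, the mitotic cyclin that CDC25 phosphatases activate together with CDK1, rose by 1.32 (SE 0.30, edgeR adjusted p = 0.00428), from a mean of 879 to 2264 normalized counts. DTYMK, which makes thymidine diphosphate, was at 0.38 (SE 0.21, adjusted p = 0.235). Of the regulators and targets of the CDC25 and WEE1 switch, 23 of 26 were tested, 7 rose and 0 fell in edgeR, against 8 higher and 1 lower in DESeq2, with a median of 0.14. CDK1, the kinase that the switch acts on, rose by 1.03 (SE 0.26, edgeR adjusted p = 0.00926), whereas WEE2, a relative of WEE1 best known from oocytes, was at -0.78 (SE 0.29, adjusted p = 0.0682).

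The core of the SCF ligase, the other large cell-cycle ubiquitin ligase, was listed for comparison. All 13 of its genes were tested, and 1 rose and 0 fell in edgeR and in DESeq2 alike (1 lower at an unadjusted edgeR p under 0.05), with a median of 0.07. SKP2, the substrate receptor that is itself an APC/C target, rose by 0.45 (SE 0.11, edgeR adjusted p = 0.00832), and BTRC, the receptor that recognizes WEE1 and CDC25A, was at -0.18 (SE 0.07, adjusted p = 0.0898). These counts stand beside 8.29% of all genes tested that were higher in RES, and no list was tested against other genes.

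**Figure D5:**
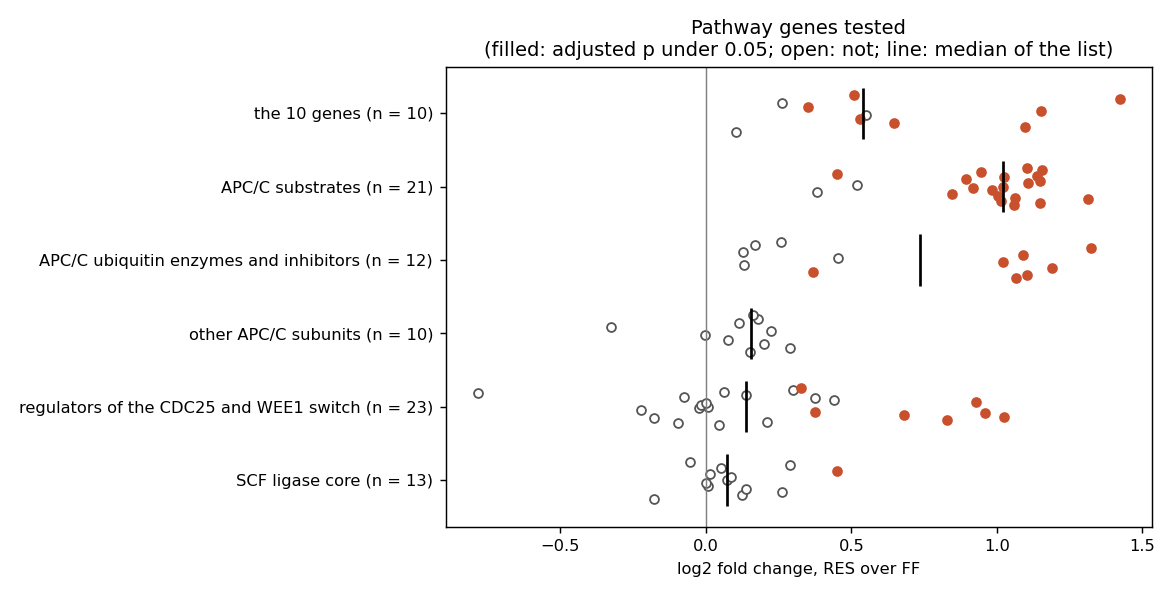
Log2 fold change, RES over FF, of each pathway gene tested (1 point per gene, filled where the adjusted p was under 0.05) with the median of each list as a line. The substrates centre at 1.02 and the ubiquitin enzymes and inhibitors at 0.74, while the other APC/C subunits (0.16), the switch regulators (0.14) and the SCF core (0.07) centre near 0.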

How the data were processed

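Mural GC libraries of 13 FF and 14 RES sows were analysed from the counts per Ensembl gene that the authors deposited. Per the labels, the study's methods and the file headers, the authors aligned reads to Sscrofa11.1 with HISAT2 2.2.1, kept unique alignments with SAMtools 1.16.1, removed PCR copies by UMI with UMI-tools 1.1.4 and counted read pairs on exons with featureCounts 1.6.2 without a strand option, so the deposited counts of overlapping genes are uncertain. The deposited counts are whole numbers and not normalized.

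Of 35670 identifiers, 17467 had a mean count of at least 5, and 11422 of these had a symbol in the name table. Leaving out 38 small RNAs gave 11384 genes. RES was compared with FF by edgeR 4.0.16 (TMM, quasi-likelihood test, R 4.3.3, no covariate) with Benjamini-Hochberg adjustment over all 11384 genes, and adjusted p under 0.05 was the threshold. To normalize, each count was divided by its library's size factor from DESeq2 1.42.0. Correlations used 100000 permutations (all permutations within quality groups). Tested on simulated data for RES against FF (11384 genes, 200 changed by a log2 fold of 1), 97.5% of the changed genes were recovered by edgeR, and 3.94% of the calls fell on unchanged genes. Correlations were computed in Python 3.11.15 with scipy 1.17.1, and figures drawn with matplotlib 3.10.9.

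The 10 genes and the pathway and marker lists were chosen with earlier results of these data known. All 10 genes are named, and of each pathway list the genes with the highest and lowest log2 fold change. KIF20A was named after its values were seen, for its overlap with CDC23, as were the marker genes listed as lower. Quality groups divide the libraries at 98% in the study's table of read statistics. Alternatives were DESeq2's Wald test and size factors, upper-quartile scaling, other count filters, use of all identifiers, the quality group as covariate or subset, a block by replicate number, leaving out single libraries and, chosen after seeing the data, leaving out FF sow 10 in the lower quality group and RES sows 3 and 5. Positions and upstream windows are from RefSeq on Sscrofa11.1 by symbol.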

Additional observations from a re-analysis of the deposited data

How the results depend on the processing

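UBE2C, CDC20, CDC25C, CDC27 and CDC23 were called higher in RES in all 27 fits that left out a single library. Over those fits the number of genes called was 1182 (without FF sow 6, and without RES sow 1) to 2350 (without RES sow 7), against 1610, and the number called among the 10 was 5 (without RES sow 1) to 9 (without FF sow 10), against 7. In the lower quality group 1 gene was called in all and 0 of the 10, and without FF sow 10 in that group 0 genes and 0 of the 10 were called. Of the 18 correlations with CDC20, 10 passed in all libraries, 3 within the upper quality group and 1 within the lower. The upper quality group, of like size, called 2023 genes and 7 of the 10, and the cause of these differences was not tested. The correlation of CDC16 with CDC20 in RES (-0.16) changed sign to 0.12 as Spearman's rho, 0.15 without the 2 farthest sows and 0.65 in the upper quality group. That of FZR1 with CDC20 in RES was -0.26 in the upper quality group, and that of CDC27 with CDC20 in FF was -0.094 in the lower. Their causes were not tested. No fold change of the 10 genes changed sign under any setting run.

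With the replicate number as a block, 1084 genes and 6 of the 10 were called: CDC25A (0.48, adjusted p = 0.0686) and WEE1 (0.47, adjusted p = 0.0916) were not, and CDC25B was (0.63, adjusted p = 0.0245). The numbers do not pair the sows: over the 13 shared numbers the correlation of deviations was -0.16 to 0.24, above 0.1 for 1 number, and 0 FF sows correlated best with the RES sow of their own number. Low counts of CDC25C and the uncertain label of FF sow 10 limit single values.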
